A study of Mus musculus with 9 samples.

Results

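This account covers 9 genes used to recognise B cells and plasma cells, measured by bulk RNA-Seq of the mouse iris after corneal alkali injury (CAI). The genes are Cd79a, Cd79b, Ms4a1, Pax5, Cd22, Blk, Jchain, Mzb1 and Xbp1. They were picked by gene symbol, and all 9 were among the 18349 genes listed for each library. The comparisons ask whether transcripts of the B lineage were higher in the injured iris, and whether they differed when VEGFR3 had been deleted from lymphatic endothelium.

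There were 9 libraries, 3 in each of 3 groups, and every library pooled 3 irises of identical genotype from mice on the C57BL/6J background. All groups carried floxed VEGFR3 alleles (VEGFR3fl/fl) and received tamoxifen at 80 mg/kg on days 13 to 17. In injured VEGFR3fl/fl and injured VEGFR3iLECko mice, a filter paper with 0.5 µL of 1 M NaOH touched the cornea for 60 s when mice were 6 weeks old. Sham VEGFR3fl/fl mice received PBS instead. VEGFR3iLECko mice also carried Prox1-CreERT2, a tamoxifen-inducible Cre that is active in every cell that expresses Prox1 and not in lymphatic endothelium alone. Irises were dissected 28 days after treatment, at 10 weeks of age.

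B cells sense antigen through a surface immunoglobulin that signals through the CD79A and CD79B chains, and Pax5 holds the lineage identity of B cells until they differentiate. Plasma cells then switch off Pax5 and Ms4a1, expand the endoplasmic reticulum under the control of XBP1, and secrete immunoglobulin, which the J chain joins into polymers. Several of these genes are also used outside the lineage: Xbp1 serves the unfolded protein response of most secretory cells, Cd22 is known from microglia, and Blk from some T cells. The healthy iris is an immune-privileged tissue of pigment epithelium, melanocytes, smooth muscle and vessels.

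The RefSeq annotation of GRCm38.p6, which is the mm10 build, places Cd79a (gene ID 12518) at chr7:24897497-24901858, Cd22 (12483) at chr7:30865404-30880342, Cd79b (15985) at chr11:106311341-106314562 and Xbp1 (22433) at chr11:5520641-5525993. It places Ms4a1 (12482) at chr19:11249679-11266149, Pax5 (18507) at chr4:44524748-44710694, Blk (12143) at chr14:63372837-63417187 and Jchain (16069) at chr5:88519809-88527897. Promoter sequence was at hand for 5 of the 9 genes, namely Cd79a, Cd22, Pax5, Jchain and Xbp1. The 250 bases before the annotated start were searched on both strands for 5 short motifs that belong to factors of the B lineage or of the unfolded protein response. Cd79a, the gene of a B cell receptor chain, and Cd22, the gene of an inhibitory lectin, were higher after injury. For Cd79a the call depended on the setting. Below are the windows of Cd79a and Cd22, and of Jchain, the plasma cell gene that varied most between libraries. They are written 5′ to 3′ on the strand of the gene, with motif matches in capitals.
Cd79a promoter, chr7:24897247-24897496, plus strand: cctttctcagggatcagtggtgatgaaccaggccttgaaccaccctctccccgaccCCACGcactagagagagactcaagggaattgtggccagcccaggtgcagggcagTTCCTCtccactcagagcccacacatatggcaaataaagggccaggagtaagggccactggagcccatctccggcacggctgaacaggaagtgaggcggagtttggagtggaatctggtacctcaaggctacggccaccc
Cd22 promoter, chr7:30879029-30879278, minus strand: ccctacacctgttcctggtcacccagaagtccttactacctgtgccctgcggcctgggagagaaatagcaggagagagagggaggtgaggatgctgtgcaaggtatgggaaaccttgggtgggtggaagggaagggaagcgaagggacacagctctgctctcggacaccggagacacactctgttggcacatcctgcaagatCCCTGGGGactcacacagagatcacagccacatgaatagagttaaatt
Jchain promoter, chr5:88527898-88528147, minus strand: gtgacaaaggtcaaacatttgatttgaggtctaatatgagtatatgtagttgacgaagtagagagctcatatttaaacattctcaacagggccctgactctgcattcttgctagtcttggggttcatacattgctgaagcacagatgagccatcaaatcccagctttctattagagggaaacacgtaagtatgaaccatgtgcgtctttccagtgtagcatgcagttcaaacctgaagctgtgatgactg

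The Cd79a window held 1 match to the PU.1-type core GAGGAA, read on the opposite strand, at position -140 from the start, and 1 match to CCACG, the core of an unfolded protein response element, at -194. The Cd22 window held 1 match to CCCNNGGG, an EBF1-type core, at -48. This window lies inside the annotated span of Cd22, because the annotation also holds a start further upstream. No match to any of the 5 motifs stood in the windows of Jchain, Pax5 and Xbp1, and none of the 5 windows held the octamer ATGCAAAT or the E-box CAGCTG. Among 32851 promoter windows of this length, 23.3% held GAGGAA, 28.3% held CCACG, 11.8% held CCCNNGGG, 13.0% held CAGCTG and 1.60% held ATGCAAAT. These matches are descriptions of the letters and not of bound sites.

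Total counts lay between 16617187 and 18306359 per library. The iris was recognisable in all of them by its pigment genes, whose 8 listed markers summed to between 27767 and 29737 CPM (counts scaled to the normalized total of each library) in Sham libraries and to between 3421 and 7185 CPM in the injured ones, and 2 ciliary body markers summed to at most 3.64 CPM. The labels call all libraries of one group replicates without saying whether the pooled irises came from separate cohorts, so p-values measure the spread between these pools. Expression of 4 Y-linked genes separated the libraries in another way than injury did. Ddx3y, one of them, had 335, 588 and 1224 counts in Sham libraries and 977, 1024 and 0 counts in injured VEGFR3fl/fl libraries, but 2, 0 and 0 counts in the VEGFR3iLECko libraries. Y-linked expression and the deletion therefore cannot be told apart in most of the comparison between the injured groups. All VEGFR3iLECko libraries also differed in this way from all Sham libraries. In that comparison Y-linked expression cannot be told apart from injury with the deletion. Flt4, the gene of VEGFR3, had 277, 353 and 400 counts in injured VEGFR3fl/fl libraries and 478, 370 and 476 in those labelled VEGFR3iLECko. The log2 difference was 0.33 ± 0.15 (SE, adjusted p = 0.200 by edgeR). Counts over the whole gene in whole iris thus gave no check of the deletion, and the group is called by its label below.

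Of the 9 genes, 6 had enough counts for the test across all genes (Cd79a, Cd79b, Cd22, Blk, Jchain and Xbp1), and Ms4a1, Pax5 and Mzb1 stayed below the filter with at most 13 counts in any library. Upregulated and downregulated mean an adjusted p under 0.05 by edgeR's quasi-likelihood test and a change of more than 1.5-fold. In injured VEGFR3fl/fl against Sham, 5 of the 6 were upregulated (Cd79a, Cd79b, Cd22, Blk and Xbp1) and 0 were downregulated. Among all 15010 genes tested, 22.1% were upregulated and 17.5% downregulated. Genes near the filter pass it through the group in which they are high, so the share among those tested is a description. Higher transcript from more cells and from more RNA per cell cannot be told apart in bulk tissue.

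**Figure D1:**
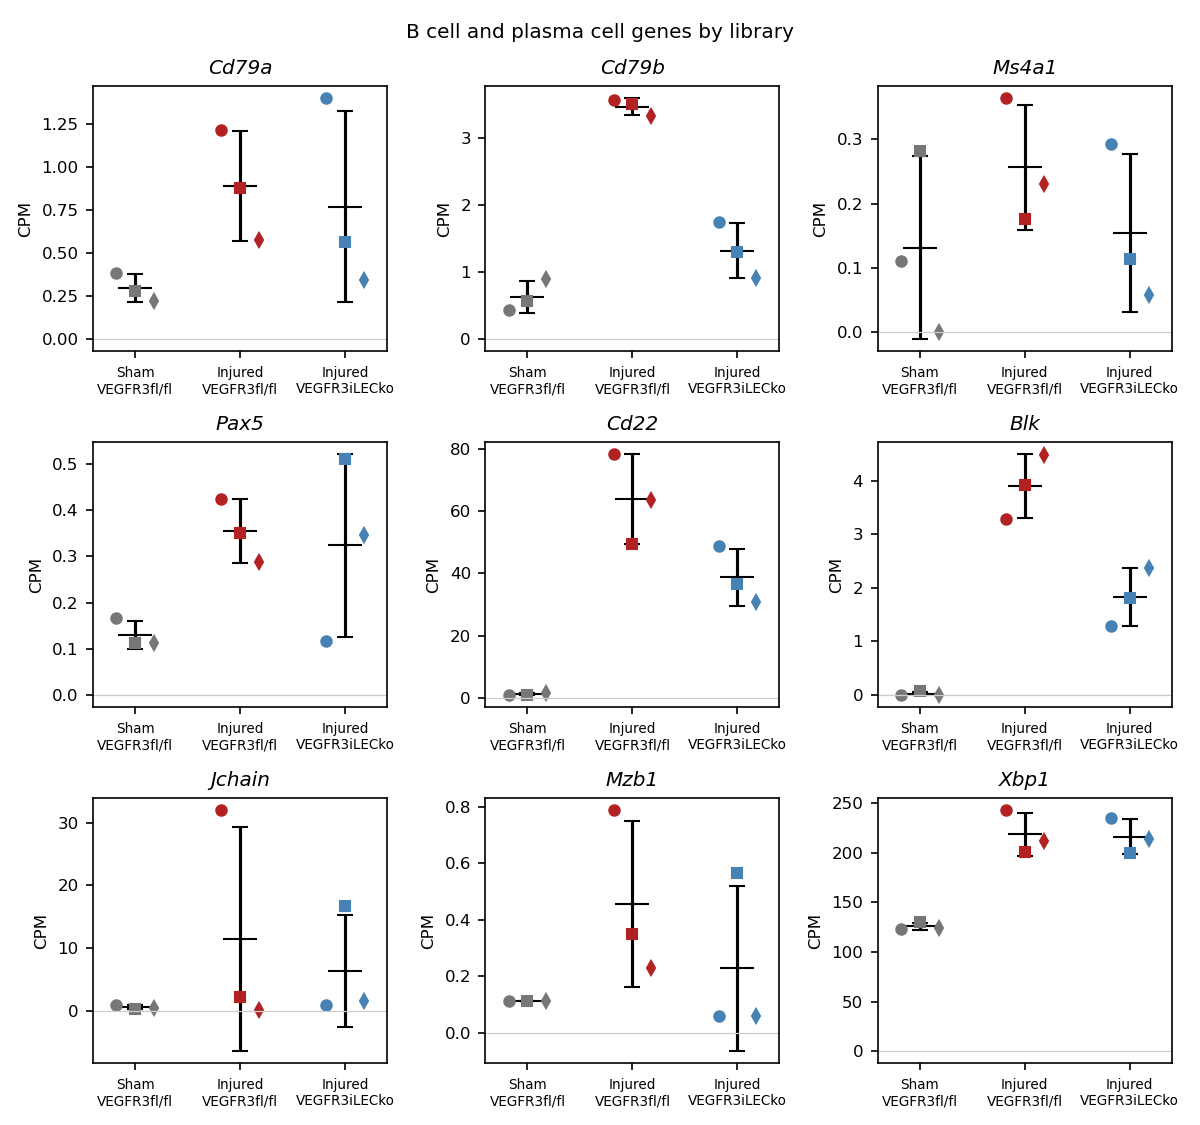
Normalized level of the 9 genes in CPM (vertical axes, linear and different for each gene) in the 3 libraries of each group, with replicate 1 as a circle, replicate 2 as a square, replicate 3 as a diamond, and the mean with its SD (n = 3) as bars, which can reach below 0. Cd22 and Blk sit near 0 in Sham libraries and apart in both injured groups, whereas Jchain is high in only 1 library of each injured group.

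Among the genes of the B cell receptor itself, Cd79b, the beta signalling chain, varied less between libraries than Cd79a in both injured groups, though not in Sham. It had 8, 10 and 16 counts in Sham libraries, 59, 60 and 58 in injured VEGFR3fl/fl libraries and 30, 23 and 16 in VEGFR3iLECko libraries. The injured VEGFR3fl/fl libraries stood together above all others, while the lowest VEGFR3iLECko library equalled the highest Sham library in counts. On the CPM scale the means were 0.636 ± 0.237, 3.47 ± 0.13 and 1.33 ± 0.42 (SD, n = 3 each). Cd79b rose 5.41-fold in injured VEGFR3fl/fl against Sham (log2 2.44 ± 0.34 SE, adjusted p = 2.29e-04 by edgeR).

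Cd79a, the alpha signalling chain that pairs with CD79B, stayed at low counts. It had 7, 5 and 4 counts in Sham libraries, 20, 15 and 10 in injured VEGFR3fl/fl libraries and 24, 10 and 6 in VEGFR3iLECko libraries. The injured VEGFR3fl/fl libraries were all above the Sham libraries, and the VEGFR3iLECko libraries ran from within the Sham range to above every other library. The rise in injured VEGFR3fl/fl was 2.92-fold (log2 1.55 ± 0.58 SE), with an adjusted p of 0.0426 by edgeR that passed the threshold narrowly. It did not pass with DESeq2 (adjusted p = 0.0541), with scaling by library size only (0.0603), or after leaving out 1 of 6 libraries. Those were each Sham library in turn (0.0672, 0.103 and 0.127), replicate 1 or 2 of injured VEGFR3fl/fl (0.124 and 0.0777) and replicate 2 of VEGFR3iLECko (0.0556).

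In approximate TPM, a scale on which counts are divided by transcript length so that genes can be compared, Cd79b was above Cd79a in all 3 libraries of Sham, at 0.926 to 1.83 against 0.449 to 0.796 TPM, and in injured VEGFR3fl/fl, at 5.34 to 5.99 against 0.970 to 1.78 TPM. In VEGFR3iLECko libraries Cd79b was also above Cd79a within each library, while the ranges over libraries overlapped, at 1.68 to 3.09 and 0.617 to 2.42 TPM.

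Genes that mark the B cell most strictly were close to the limit of detection in every group. Ms4a1, which encodes the B cell surface protein CD20, had 2, 5 and 0 counts in Sham libraries, 6, 3 and 4 in injured VEGFR3fl/fl and 5, 2 and 1 in VEGFR3iLECko libraries, and the 3 groups overlapped. Pax5, the transcription factor that commits cells to the B lineage, had 3, 2 and 2 counts in Sham libraries, 7, 6 and 5 in injured VEGFR3fl/fl and 2, 9 and 6 in VEGFR3iLECko libraries. For Pax5 the injured VEGFR3fl/fl libraries lay above the Sham libraries without overlap, but on a total of 18 against 7 counts. The ratio of these totals, corrected for library size, was 2.70 with an exact 95% interval of 1.08 to 7.65, which covers counting error only. For Ms4a1 the ratio was 1.95 (0.723 to 5.77), so that no difference was detectable at this depth. Fitted without the filter, the log2 changes were 0.93 ± 0.90 (SE, adjusted p = 0.424) for Ms4a1 and 1.39 ± 0.62 (adjusted p = 0.0902) for Pax5 by edgeR.

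Cd22 and Blk, which temper and transmit signals of the B cell receptor, changed more than the receptor chains. The 95% intervals of their log2 changes, 5.11 to 6.38 for Cd22 and 5.88 to 8.59 for Blk, did not overlap those of Cd79b (1.67 to 3.20) and Cd79a (0.24 to 2.85). Cd22, an inhibitory sialic acid-binding lectin, had 18, 18 and 27 counts in Sham libraries, 1290, 844 and 1105 in injured VEGFR3fl/fl and 837, 645 and 538 in VEGFR3iLECko libraries. All injured libraries were far above Sham, and the highest VEGFR3iLECko library lay just below the lowest injured VEGFR3fl/fl library. Mean levels were 1.18 ± 0.30, 63.7 ± 14.4 and 38.8 ± 9.2 CPM (SD, n = 3 each). Cd22 rose 53.8-fold in injured VEGFR3fl/fl against Sham (log2 5.75 ± 0.28 SE, adjusted p = 4.39e-07 by edgeR).

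Blk, a SRC-family kinase that acts below the receptor, had 0, 1 and 0 counts in Sham libraries, 54, 67 and 78 in injured VEGFR3fl/fl and 22, 32 and 41 in VEGFR3iLECko libraries. No group overlapped another. In totals, 199 counts stood against 1, a ratio of 208.9 after correction for library size, with an exact 95% interval of 37.1 to 8293 from counting error alone. The test gave an adjusted p of 9.76e-06 by edgeR, and the fitted log2 change of 7.24 ± 0.60 (SE) depends on how a near absence of counts is smoothed.

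Outside the 9 genes, Cr2, the complement receptor of mature B cells, stayed low in the same libraries, with at most 3 counts in any of them. It was too low to test, and injured VEGFR3fl/fl and Sham overlapped.

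Jchain, which encodes the joining chain of polymeric immunoglobulin, was the least uniform of the 9. It had 17, 6 and 10 counts in Sham libraries, 527, 38 and 2 in injured VEGFR3fl/fl and 16, 295 and 28 in VEGFR3iLECko libraries. Replicate 1 of injured VEGFR3fl/fl and replicate 2 of VEGFR3iLECko held nearly all of the counts of their groups, while replicate 3 of injured VEGFR3fl/fl fell below every Sham library. The SD exceeded the mean in both injured groups, at 11.4 ± 17.8 CPM and 6.42 ± 8.92 CPM, against 0.615 ± 0.305 CPM in Sham (n = 3 each). The log2 change in injured VEGFR3fl/fl against Sham, 4.20 ± 1.73 (SE), did not pass the threshold (adjusted p = 0.0613 by edgeR). Without replicate 1 of injured VEGFR3fl/fl it was 0.91 (adjusted p = 0.611), whereas it passed without replicate 2 (4.69, adjusted p = 0.0475) or 3 (4.78, 0.0223) of that group, without replicate 2 of VEGFR3iLECko (4.20, 0.0427), with Y-linked expression in the fit (4.09, 0.0493) and with DESeq2 (4.21, 0.0187).

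Mzb1, an endoplasmic reticulum protein that assists immunoglobulin assembly in marginal zone B cells and plasma cells, had 2 counts in each Sham library, 13, 6 and 4 in injured VEGFR3fl/fl and 1, 10 and 1 in VEGFR3iLECko libraries. Its highest value in each injured group fell in the library with the most Jchain. After group means were removed, Mzb1 and Jchain had a Pearson correlation of 0.87 across the 9 libraries, the closest within-group relation of any pair among the 9 genes, with the same 2 libraries at the top for both. The injured VEGFR3fl/fl libraries were above Sham without overlap, on 23 against 6 counts, a ratio of 4.02 (exact 95% interval 1.59 to 12.1). Fitted without the filter, the log2 change was 1.96 ± 0.90 (SE, adjusted p = 0.101 by edgeR).

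Xbp1, the transcription factor that builds up the secretory apparatus, was abundant throughout. It had 2218, 2301 and 2208 counts in Sham libraries, 4005, 3423 and 3692 in injured VEGFR3fl/fl and 4016, 3522 and 3724 in VEGFR3iLECko libraries. In counts and in CPM both injured groups stood clear of Sham and overlapped each other almost entirely. Xbp1 rose 1.74-fold in injured VEGFR3fl/fl (log2 0.80 ± 0.09 SE, adjusted p = 7.57e-05 by edgeR), from 125.7 ± 3.8 to 218.5 ± 22.1 CPM (SD, n = 3 each). On the approximate TPM scale, which carries no TMM normalization, Xbp1 was at 170.3 ± 2.1 in Sham, 239.6 ± 8.6 in injured VEGFR3fl/fl and 263.9 ± 13.0 in VEGFR3iLECko libraries (SD, n = 3 each). There the injured groups did not overlap, at 229.7 to 245.1 and 251.8 to 277.7 TPM. Gene counts do not separate the spliced, active form of its mRNA from the unspliced one.

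Ordered by approximate TPM within injured VEGFR3fl/fl libraries, Xbp1 (229.7 to 245.1) led, followed by Cd22 (30.3 to 42.1), and neither range touched that of another of the 9 genes. Jchain (0.121 to 29.2) overlapped every gene from Cd79b to Ms4a1. Below it, Cd79b (5.34 to 5.99) lay above Blk (3.01 to 4.74), and Blk above Cd79a (0.970 to 1.78). Cd79a could not be ordered against Mzb1 (0.625 to 1.86), and Ms4a1 (0.139 to 0.253) and Pax5 (0.0883 to 0.113) came last. In Sham libraries the order was different below Xbp1 (168.7 to 172.6 TPM). Cd79b (0.926 to 1.83), Cd22 (0.707 to 1.11) and Jchain (0.400 to 1.20) overlapped, and Blk (0 to 0.0671) overlapped Pax5 (0.0390 to 0.0621) and Ms4a1 (0 to 0.254) at the bottom.

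In injured VEGFR3iLECko against injured VEGFR3fl/fl, 0 of the 6 tested genes passed edgeR's threshold in either direction, against 0.573% of all tested genes upregulated and 0.466% downregulated. At an unadjusted p under 0.05, 3 genes were lower (Cd79b, Cd22 and Blk), and DESeq2's Wald test called the same 3 downregulated. Among all 15010 tested genes, 3674 had an unadjusted p under 0.05 by edgeR in this comparison, in either direction. Of these, 493 were lower by more than 1.5-fold. Cd79b differed by a log2 value of -1.39 (95% interval -2.10 to -0.67, unadjusted p = 0.00171, adjusted p = 0.0612 by edgeR and 0.00641 by DESeq2). Cd22 differed by -0.72 (-1.18 to -0.26, adjusted p = 0.0906 by edgeR and 0.0263 by DESeq2), and Blk by -1.09 (-1.88 to -0.30, adjusted p = 0.114 and 0.0449). For each of the 3 genes, all 3 VEGFR3iLECko libraries were below all 3 injured VEGFR3fl/fl libraries. The share of all tested genes that were as free of overlap was not counted. The sign was kept under all 19 alternative settings, but these reuse the same libraries and add no independent evidence. The DESeq2 fit called 349 genes upregulated and 281 downregulated in this comparison, where edgeR called 86 and 70.

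**Figure D2:**
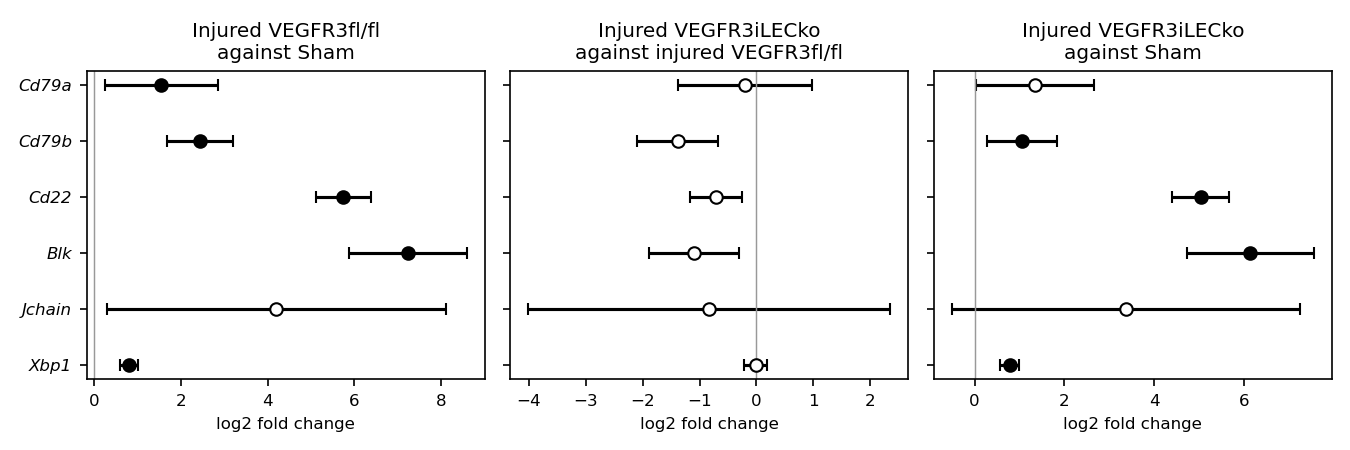
Fitted log2 fold change (horizontal axes) with its 95% interval for the 6 tested genes in the 3 comparisons, with filled points for genes past an adjusted p of 0.05 and more than 1.5-fold by edgeR. Cd79b, Cd22 and Blk lie below 0 in the comparison of the injured groups with open points, and the interval of Jchain is the widest in all 3 panels.

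Replicate 3 of injured VEGFR3fl/fl bears on this comparison because it was the only injured VEGFR3fl/fl library with few Y-linked counts, as all VEGFR3iLECko libraries had. In that library Cd79b stood at 3.33 CPM, Cd22 at 63.5 CPM and Blk at 4.48 CPM. The VEGFR3iLECko libraries reached at most 1.75, 48.9 and 2.36 CPM for these genes. A fit of the 4 injured libraries with few Y-linked counts beside the 3 Sham libraries, which assumes this lone library to vary like the Sham and VEGFR3iLECko groups, gave log2 differences of -1.32 for Cd79b (adjusted p = 0.307), -0.70 for Cd22 (0.243) and -1.29 for Blk (0.335) by edgeR. None passed the threshold, and with 1 library in that arm these values compare that library with the VEGFR3iLECko group.

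**Figure D3:**
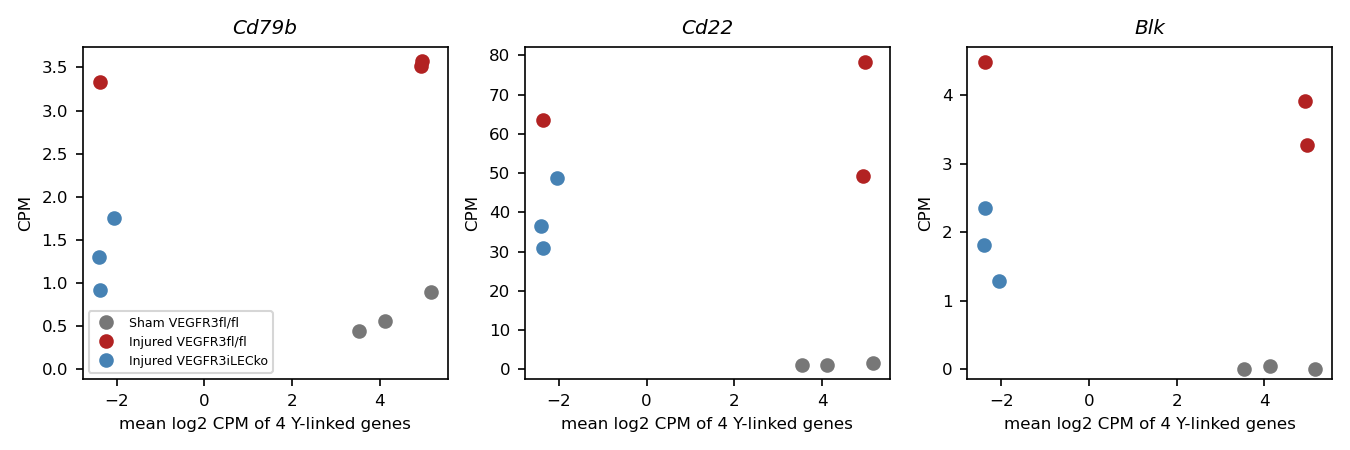
Level of Cd79b, Cd22 and Blk in CPM (vertical axes) against the mean log2 CPM of 4 Y-linked genes (horizontal axes), 1 point for each of the 9 libraries, coloured by group. The injured VEGFR3fl/fl library with few Y-linked counts, at the left, lies above the 3 VEGFR3iLECko libraries beside it in all 3 panels.

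For the remaining genes the fitted differences between the injured groups were not called and had intervals on both sides of 0. For Xbp1 the log2 difference was -0.015 with a 95% interval of -0.22 to 0.19 (adjusted p = 0.935 by edgeR), although its approximate TPM was higher in all 3 VEGFR3iLECko libraries. For Cd79a it was -0.20 (-1.39 to 0.98, adjusted p = 0.839) and for Jchain -0.83 (-4.01 to 2.35, adjusted p = 0.745), and the sign of all 3 turned under some settings. Jchain turned to 2.46 without replicate 1 of injured VEGFR3fl/fl. Ms4a1, Pax5 and Mzb1, with 8, 17 and 12 counts in the VEGFR3iLECko group against 13, 18 and 23, had ratios of 0.602 (exact 95% interval 0.216 to 1.57), 0.923 (0.447 to 1.90) and 0.510 (0.231 to 1.07).

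In injured VEGFR3iLECko against Sham, 4 of the 6 tested genes were upregulated (Cd79b, Cd22, Blk and Xbp1) and 0 downregulated, against 19.7% and 15.0% of all tested genes. These 4 were upregulated in each injured group against the shared Sham libraries. Y-linked expression also separated all VEGFR3iLECko from all Sham libraries. Cd22 was 32.8-fold higher (log2 5.03 ± 0.28 SE, adjusted p = 1.22e-06 by edgeR) and Xbp1 1.72-fold higher (0.78 ± 0.09, adjusted p = 1.12e-04). Blk had 95 counts against 1, a ratio of 97.5 (exact 95% interval 17.1 to 3891, adjusted p = 4.55e-05). Cd79b was 2.07-fold higher (log2 1.05 ± 0.34 SE, adjusted p = 0.0278), a call that was lost without replicate 1 or 2 of Sham (0.0981 and 0.0818), without replicate 1 or 2 of VEGFR3iLECko (0.0989 and 0.0604), and with Y-linked expression (0.120) or the replicate number (0.0622) in the fit. Cd79a, at log2 1.34 ± 0.58, did not pass (adjusted p = 0.0776) except without replicate 3 of VEGFR3iLECko (0.0369) or with the replicate number in the fit (0.0429). Jchain, at 3.37 ± 1.72, did not pass (adjusted p = 0.125), but did without replicate 1 of injured VEGFR3fl/fl (0.0411) and in a fit of only the 6 libraries compared (0.0280).

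The 9 genes were set beside longer lists of the B lineage and its partners. The number called in every list below is to be read beside the share of all tested genes. After injury, 22.1% of these were upregulated and 17.5% downregulated, and between the injured groups 0.573% and 0.466%. Among 20 listed surface receptors of B cells, 16 were tested and 13 of these were upregulated in injured VEGFR3fl/fl against Sham, with 0 downregulated and a median log2 change of 2.86 beside 0.01 for all tested genes. Many of them, such as the inhibitory Fc receptor gene Fcgr2b (log2 2.50, adjusted p = 7.25e-08 by edgeR) and Ly86, the MD-1 partner of CD180 (3.23, adjusted p = 9.51e-07), are also used by myeloid cells. Cd81, a tetraspanin found on most cells, was at log2 -0.58 (adjusted p = 2.58e-04), which is short of 1.5-fold. In VEGFR3iLECko against injured VEGFR3fl/fl, 2 of the 16 were downregulated. They were Fcrl1, an Fc receptor-like protein of B cells, with 159, 158 and 118 counts against 44, 49 and 54 (log2 -1.60, adjusted p = 0.0263 by edgeR), and Ly86, with 1616, 1162 and 1249 against 770, 603 and 608 (-1.06, 0.0278). The remaining 14 did not pass.

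Of the kinases and adaptors of B cell receptor signalling, 19 of 20 were tested, and 16 were upregulated and 1 downregulated after injury (median log2 2.75). Lyn, the kinase that phosphorylates the receptor chains and CD22, rose by log2 2.73 (adjusted p = 5.63e-08 by edgeR), and Ptprc, the CD45 phosphatase of all leukocytes, by 3.98 (6.26e-07). Prkcb, a protein kinase C also present in neurons, fell by 0.64 on the log2 scale (adjusted p = 5.32e-04). Ptpn6, the SHP-1 phosphatase that CD22 recruits, was the 1 gene called in VEGFR3iLECko against injured VEGFR3fl/fl (log2 -0.61, adjusted p = 0.0399).

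Of 15 transcription factors of the B lineage, 14 were tested, and 7 were upregulated and 0 downregulated after injury (median log2 0.76). Spi1, the gene of PU.1, which serves myeloid and B cells, rose by log2 4.07 (adjusted p = 4.87e-08 by edgeR). Foxo1, Tcf3 and Bcl6, the other abundant members, gave 0.22, 0.31 and -0.06 and were not called. Irf8, used by B cells, dendritic cells and macrophages, was the 1 factor downregulated in VEGFR3iLECko libraries (log2 -0.76, adjusted p = 0.0214). Pou2af1, the octamer coactivator that is largely particular to B and plasma cells, was too low to test, with 1, 1 and 0 counts in Sham, 9, 10 and 4 in injured VEGFR3fl/fl and 5, 11 and 4 in VEGFR3iLECko libraries. It was above Sham in all 6 injured libraries, and the injured groups overlapped.

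Of 10 germinal centre genes, 7 were tested and 6 were upregulated after injury (median log2 1.84), with 0 called between the injured groups by edgeR. Basp1 (log2 1.84, adjusted p = 1.21e-06) and the proliferation gene Mki67 (3.08, 2.75e-04) were among them, and neither is restricted to germinal centres.

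Of 15 plasma cell genes, 13 were tested, with 6 upregulated and 1 downregulated after injury (median log2 0.87) and 0 called between the injured groups by edgeR. Txndc5 (log2 0.87, adjusted p = 1.81e-05) and Sdc1, the syndecan gene that epithelia also express (1.42, 2.54e-04), rose. Prdm1, the regulator of plasma cell differentiation, had 209, 164 and 193 counts in Sham, 147, 487 and 545 in injured VEGFR3fl/fl and 770, 945 and 935 in VEGFR3iLECko libraries. It was called after injury (log2 1.12, adjusted p = 0.0279), although the injured VEGFR3fl/fl library with the most Jchain lay below every Sham library. All VEGFR3iLECko libraries lay above all injured VEGFR3fl/fl libraries, a log2 difference of 1.15 that was not called (adjusted p = 0.111). Ell2, an elongation factor of secretory cells, gave -0.09 and was not called, and Tnfrsf17, the BCMA receptor of plasma cells, had at most 5 counts in any library. Constant-region immunoglobulin genes were not analysed here. Vpreb3 and Pigr, the 2 genes of the immunoglobulin list with values, had at most 4 counts in any library and were not tested.

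Of 25 genes of the XBP1 and endoplasmic reticulum stress response, all were tested, and 8 were upregulated, 1 downregulated and 16 not called after injury (median log2 0.41). The share upregulated is to be read beside the 22.1% of all tested genes. Pdia6, a disulfide isomerase, rose by 0.92 (adjusted p = 0.00178 by edgeR) and Ssr3, of the translocon, by 0.66 (1.67e-04). The chaperone genes Calr, Hsp90b1 and Hspa5 gave 0.27, 0.41 and 0.54 and were not called. Edem1 (1.53, 2.05e-06), Sdf2l1 (1.21, 0.00222) and Sec61b (0.81, 3.37e-04) were also among the 8 upregulated. Dnajb9 was the 1 gene of the list that was downregulated, by 0.64 (7.18e-04). Between the injured groups 0 of the 25 were called, as Xbp1 itself was not.

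Factors that keep B cells and plasma cells alive were mostly low, and 4 of 10 were tested, of which 3 were upregulated after injury and 0 downregulated. Tnfsf13b, the gene of BAFF, had 7, 14 and 14 counts in Sham, 59, 28 and 73 in injured VEGFR3fl/fl and 54, 58 and 47 in VEGFR3iLECko libraries (log2 2.25 against Sham, adjusted p = 0.00119 by edgeR). Tnfrsf13b, the TACI receptor for BAFF and APRIL, rose by 2.81 (6.25e-06). Il6, a cytokine that supports plasma cells among many other targets, had 1, 0 and 0 counts in Sham, 19, 61 and 47 in injured VEGFR3fl/fl and 282, 256 and 255 in VEGFR3iLECko libraries. It was the 1 gene of the list called between the injured groups, upward (log2 2.61, adjusted p = 0.0263). No gene of the whole table was upregulated in this comparison with Y-linked expression in the fit, in a fit of only the 6 libraries or without replicate 2 of VEGFR3iLECko, so the call on Il6 was lost there. The last 2 settings also left 0 genes downregulated, and with them went the calls on Fcrl1, Ly86, Ptpn6 and Irf8. With Y-linked expression in the fit, 2 genes of the whole table were downregulated, so the calls on these genes could not all have held there.

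Of 15 genes that attract B cells, 11 were tested and 8 were upregulated after injury, with 0 downregulated and 0 called between the injured groups by edgeR. Cxcl12, which also holds plasma cells in bone marrow, rose by log2 0.68 (adjusted p = 7.96e-04), and its receptor gene Cxcr4 by 5.21 (1.75e-08). Ch25h, which makes the precursor of an oxysterol that guides B cells, rose by 0.73 (0.0109). Ltbr, the lymphotoxin receptor, gave 0.45 and was not called. Ccl21a, 1 of the 8, had 7, 18 and 18 counts in Sham but 1522, 79 and 0 in injured VEGFR3fl/fl libraries. Its rise thus rested mostly on replicate 1, the library with the most Jchain.

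**Figure D4:**
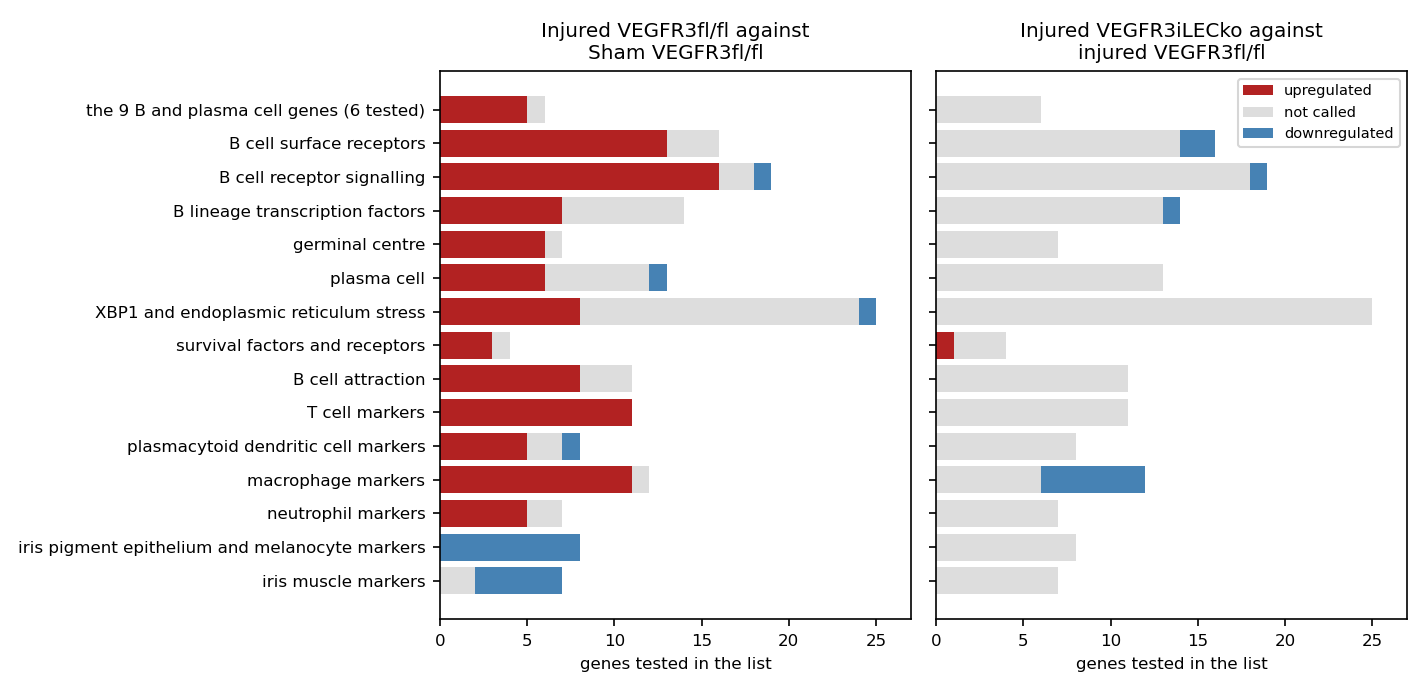
Number of tested genes (horizontal axes) that were upregulated, downregulated or not called by edgeR in the 9 genes and in the lists. Lists with more than 2 tested genes are shown, except the 4 Y-linked genes. Injured VEGFR3fl/fl against Sham is at the left and injured VEGFR3iLECko against injured VEGFR3fl/fl at the right. In the left panel 13 of 16 B cell surface receptors are upregulated against 8 of 25 genes of the XBP1 list, and in the right panel macrophage markers hold 6 of the downregulated genes. The calls of the right panel were lost in some settings.

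Markers of other immune cells also differed after injury, and between the injured groups only macrophage markers were called by edgeR, with 0 of 11 T cell, 0 of 8 plasmacytoid dendritic cell and 0 of 7 neutrophil markers. All 11 T cell markers tested were upregulated in injured VEGFR3fl/fl against Sham, and their summed level was 8.02 to 8.92 CPM in Sham, 58.4 to 81.2 CPM in injured VEGFR3fl/fl and 38.7 to 54.3 CPM in VEGFR3iLECko libraries. Of 12 macrophage markers, 11 were upregulated after injury and 6 were downregulated in VEGFR3iLECko against injured VEGFR3fl/fl, and their sums were 403.3 to 412.5, 3437 to 3771 and 2194 to 2444 CPM. These 6 calls were lost in a fit of only the 6 libraries and without replicate 2 of VEGFR3iLECko, where no gene was downregulated. With Y-linked expression in the fit, 2 genes of the whole table were downregulated, so most of the 6 calls were lost there too. Of 8 plasmacytoid dendritic cell markers tested, 5 were upregulated and 1 downregulated after injury, with sums of 260.8 to 315.8, 390.5 to 494.7 and 370.5 to 416.5 CPM. Of 7 neutrophil markers tested, 5 were upregulated, with sums of 4.43 to 5.97, 168.8 to 542.6 and 403.7 to 1336 CPM, so that neutrophil markers were the 1 list of these 4 whose mean sum was higher in VEGFR3iLECko than in injured VEGFR3fl/fl libraries. All 8 pigment markers and 5 of 7 iris muscle markers were downregulated after injury. The mean sums of the T cell, macrophage and plasmacytoid dendritic cell lists had the same order over the 3 groups as Cd79b, Cd22 and Blk. So did those of the B cell surface receptor, signalling, transcription factor, germinal centre, attraction and XBP1 lists. Those of the plasma cell and survival factor lists did not. The injured groups overlapped in the germinal centre sums (210 to 261 and 215 to 247 CPM) and the XBP1 sums (4320 to 5426 and 4180 to 5293 CPM). The plasmacytoid dendritic cell sums overlapped as well. Sums weigh abundant genes most. Cd81, which was lower after injury, made up 577.6 of the mean surface receptor sum of 691.9 CPM in Sham. The part of any of these cells in the levels of the 3 genes was not tested.

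Genes whose CPM followed each of the 6 tested genes most closely over the 9 libraries were named as a description, from 14217 genes with a mean of at least 1 CPM. For Cd22 they were Mpeg1, a perforin-like protein of phagocytes, Nlrp1b, an inflammasome sensor, and Ctss, the lysosomal protease of antigen-presenting cells (Pearson r of 0.998 each). For Blk they were Clec4a2, a lectin of myeloid cells, Sh3bp2 and Tnfrsf14 (0.996 to 0.997). For Cd79b they were the T cell costimulatory receptor gene Cd28 (0.98), Eepd1 and Mindy4 (0.97 each). Cd79a was closest to the chemokine gene Cxcl9 (0.94), Cx3cl1 and Mybbp1a (0.93 each), and Xbp1 to Slc39a1, Sparc and Slc41a2 (0.99 each).

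For Jchain the closest genes were Ip6k2 (0.94), Depp1 (0.91) and Myh2, a myosin of skeletal muscle (0.91). Myh2 had 55 counts in replicate 1 of injured VEGFR3fl/fl and 73 in replicate 2 of VEGFR3iLECko, the 2 libraries high in Jchain, against 1 to 23 in the other 7. All such correlations rest on points that share the step between Sham and injury, or on 1 or 2 libraries, and carry no test. Within groups, Cd22 and Cd79b had a correlation of 0.79 in log2 CPM, whereas Blk ran against Cd79a (-0.79) and Cd22 (-0.69), so that the sign differed between pairs. Blk and Cd79a had few counts in Sham libraries, and the part of counting error in these values was not tested.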

How the data were processed

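The authors filtered single-end reads of 50 bases and, per the submitters' processing notes, used HISAT2 2.0.4, Bowtie2 2.2.5 and DESeq2 1.4.5 on mm10. They deposited expected counts per gene, without normalization. Not all values were whole numbers (9.83% to 10.3% of a library's genes were not). The counting program and annotation are not given in the sources used here. A combined table of the same libraries was not used. The genotype tags of 2 VEGFR3iLECko libraries name another VEGFR number, and titles and descriptions were followed.

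Counts were rounded in R 4.3.3. edgeR 4.0.16 filtered genes with filterByExpr (15010 of 18349 kept) and normalized by TMM (factors 0.900 to 1.09). The quasi-likelihood test was run on all 9 libraries at once, and p-values were adjusted over all tested genes (Benjamini-Hochberg). CPM used TMM-scaled totals. Approximate TPM used the longest GENCODE M21 transcript (96.1% of genes). Replicates differed by more than counting noise (chi-square per degree of freedom 5.13 to 76.2). Intervals of count ratios are exact and cover counting error only. Replicate numbers were not used as pairs in the main fit. Deviations of same-numbered libraries correlated by -0.39 to 0.13, which with 3 libraries per group cannot exclude a shared run. Promoters came from RefSeq (GRCm38.p6). Named were all 9 genes and up to 4 of the most abundant genes of each list. Also named were genes of the B and plasma cell lists called between the injured groups, and the 3 closest genes by correlation. Other low-count markers such as Cr2, Pou2af1, Tnfrsf17 and Ddx3y were named after their values were seen. So were Prdm1, Ccl21a, Dnajb9, Edem1, Sdf2l1 and Sec61b. The genes and lists were chosen with earlier results of these data known. Alternatives covered normalization (RLE, upper quartile, library size), filters, DESeq2 1.42.0, the libraries fitted, the replicate block, Y-linked expression, thresholds and each library left out.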

Additional observations from a re-analysis of the deposited data

How the results depend on the processing

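The number of the 9 genes called kept within 1.5 times of the reported number under every setting run, except that DESeq2 called 3 downregulated between the injured groups where edgeR called 0. Cd22, Blk and Xbp1 against Sham passed an adjusted p of 0.05 in both injured groups under all 18 settings, but Xbp1 failed a 2-fold threshold by construction. Reversals concerned uncalled differences between the injured groups. The log2 difference of Cd79a turned to 0.38 with Y-linked expression in the fit, 0.42 among libraries with few Y-linked counts (a setting added after seeing the data), and lay between -0.95 and 0.15 as single libraries were left out. That of Jchain turned to 4.75, 5.73 and, with the replicate block, 0.33, and lay between -3.16 and 2.46. That of Xbp1 turned to 0.032 and 0.033, to 0.050 with library size only, and lay between -0.079 and 0.072. The turns on leaving out 1 library came without replicate 1 of injured VEGFR3fl/fl (all 3 genes), without replicate 3 of VEGFR3iLECko (Cd79a) and without its replicate 2 (Xbp1). With library size only, the medians of the plasma cell and XBP1 lists between the injured groups turned to 0.018 and 0.013, the median of all genes after injury moved to -0.16, and 2783 genes were upregulated and 3523 downregulated where TMM gave 3323 and 2630. The cause of the reversals was not tested.

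Calls between the injured groups over all genes were few and unstable. Against 86 up and 70 down, there were 11 and 13 with the replicate block, 0 and 2 with Y-linked expression, 2 and 10 among libraries with few Y-linked counts, and 0 and 0 in a fit of only the 6 libraries (487 and 392 past 1.5-fold at an unadjusted p under 0.05). Leaving out single libraries gave 0 to 174 up and 0 to 149 down, with 0 and 0 without replicate 2 of VEGFR3iLECko. With no fold threshold there were 122 and 112, and above 2-fold 31 and 10. The replicate block left 5, 0 and 4 of the 9 genes upregulated in the 3 comparisons, and exchanged Cd79b for Cd79a in VEGFR3iLECko against Sham. Whether same-numbered replicates shared an experiment is not given by the labels. Depth limits Ms4a1, Pax5, Mzb1, Cd79a and Blk in Sham, each with at most 7 counts in any Sham library.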
